A study of Drosophila melanogaster with 36 samples.

Results

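Transcripts of 46 genes of DNA replication and cell division were followed in brains of late larvae (wandering L3) of Drosophila melanogaster. The genes were chosen by symbol for their known roles, but with earlier results of these data known. All 46 were found among the 17606 genes of the count table and were among the 12167 that passed the filter on low counts. They form 3 classes. The replication class has 22 genes, the cyclins, cyclin-dependent kinases and their regulators 13, and the mitosis class 11. The members lie on arms 2L (12 genes), 2R (14), 3L (4), 3R (9) and X (7). Their mean levels ran over a range of 4.10 to 635 CPM, a gene's reads scaled to a common library total.

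Poly(A) RNA had been sequenced from male and female brains of 6 genotypes, with 3 libraries for each of the 12 groups, all from larvae raised at 25 °C and seeded 50 per vial. Set21 larvae, which the study names as mutants of Set2, the methyltransferase that acts on lysine 36 of histone H3, were set against yw larvae. H3.3WTH3.2K36R larvae, in which the replication-dependent histone H3.2 carries arginine in place of lysine 36 while H3.3 is wild type, were set against H3.3WTH3.2HWT larvae. H3.3K36RH3.2HWT larvae, with that change in the replication-independent histone H3.3, were set against H3.3CtrlH3.2HWT larvae. The comparisons are called Set2, H3.2K36R and H3.3K36R after what was mutated. The labels do not explain the terms Set21, HWT and Ctrl, and no source used here tells how the histone alleles were introduced. Separate dissections for the 3 libraries of a group are not stated either, so the p-values measure the spread between libraries, which may be technical.

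The assigned depth ran over 82.5 to 143.8 M reads per library. Set2 itself averaged 28.9 ± 0.904 CPM in Set21 males and 198 ± 2.84 CPM in yw males, and 32.1 ± 1.08 CPM in Set21 females and 185 ± 4.17 CPM in yw females (SD, n = 3 each). His3.3A, which encodes H3.3, averaged 65.6 to 69.4 CPM in both H3.3K36RH3.2HWT and H3.3CtrlH3.2HWT brains and 249 to 353 CPM in the other genotypes. Its level therefore does not tell the H3.3K36R libraries from their controls. The second H3.3 gene, His3.3B, was far more abundant, at group means of 2806 to 3652 CPM, and 2941 to 3566 CPM in H3.3K36RH3.2HWT and H3.3CtrlH3.2HWT brains. The male-specific RNA roX2 had 26.8 to 73.8 CPM in male libraries. Among females it had 7.52, 15.5 and 9.94 CPM in H3.3WTH3.2HWT libraries 1 to 3. It had 8.24 and 10.6 CPM in H3.3K36RH3.2HWT female libraries 1 and 2, and 7.99 CPM in H3.3WTH3.2K36R female library 1. The other female libraries had 0.0413 to 4.74 CPM. Set21 male library 1 also stood apart, with a summed level of the replication members of 1616 CPM against 1371 and 1314 CPM in the other Set21 male libraries. Counts of members lower in H3.2K36R and H3.3K36R females are given with all libraries and without the female library with most roX2 of each genotype. Members described by library whose female call ended in that check are given both ways too. Counts of members lower and higher in Set21 males are given with and without Set21 male library 1. Counts for gene lists, for members called in both sexes and for X-linked and autosomal members are given with all libraries only.

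Before S phase the origin recognition complex (Orc genes) and the loading factor dup place the ring-shaped MCM helicase on DNA, and geminin blocks dup once replication has begun. Cdc45 and the GINS complex (Psf1, Psf2, Psf3 and Sld5) then join the ring and switch it on, while PCNA, the sliding clamp, holds polymerases on the template and ribonucleotide reductase (RnrL, RnrS) supplies nucleotides. Entry into mitosis depends on Cdk1 with the cyclins CycA, CycB and CycB3 after the phosphatase stg has activated the kinase, and exit depends on destruction of cyclins and of the securin pim. In the late larval brain these genes serve neuroblasts, their dividing daughters and the optic lobe neuroepithelium, whereas neurons have left the cycle. Because whole brains were sequenced, fewer dividing cells and less RNA per dividing cell cannot be told apart.

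The members differed widely in abundance. Scaled by exon length to RPKM (CPM per kilobase of exon, with lengths from Ensembl release 115, which may differ from the annotation the authors counted on), PCNA was the most abundant in yw males at 125 ± 8.44 RPKM (SD, n = 3) and in yw females at 120 ± 6.5 RPKM. The transcription factor E2f1 followed at 106 ± 2.81 RPKM in yw males and 109 ± 3.15 RPKM in yw females. Every PCNA library lay above every E2f1 library in each sex of yw, in females by a margin smaller than either SD. In H3.3WTH3.2HWT males the order turned, with E2f1 at 99.8 ± 1.6 RPKM and PCNA at 98.4 ± 2.88 RPKM, a difference within their spread. CycA had 80.2 ± 1.98 RPKM and geminin 74.3 ± 2.54 RPKM in yw males. RnrS, polo, stg and Cdk1 came next between 63.9 and 67.1 RPKM, differences no larger than their spread. The 6 MCM ring genes were close to one another, with Mcm7 at 58.7 ± 2.41 RPKM and the other 5 between 39.8 (Mcm5) and 42.2 RPKM (dpa). The 4 GINS genes were far lower, with Sld5 at 9.26 ± 0.702 RPKM, Psf1 at 6.94 ± 0.104 RPKM, Psf2 at 4.60 ± 0.259 RPKM and Psf3, the lowest member, at 4.06 ± 0.326 RPKM. Mcm7 shares 81.7% of its exon bases with an antisense gene on the other strand, and 19 members overlap the exons of another gene in all, none of them on the same strand. The library kit keeps strand, but no source used here tells whether the counting did.

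Of the 46 members, 41 passed the test (edgeR quasi-likelihood test, Benjamini-Hochberg adjusted p below 0.05 over all 12167 genes) in at least 1 of the 6 comparisons of a mutant with its control. Orc2, Orc5, PCNA, RnrS and Cdk4 passed in none. The share of all genes that passed in at least 1 comparison was not counted. In Set2 males alone 44.9% of all genes passed, so the 41 are not read as particular to these members. The map of fold changes shows values below 0 in nearly every row for H3.2K36R, few calls for H3.3K36R and calls in both directions for Set2.

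**Figure D1:**
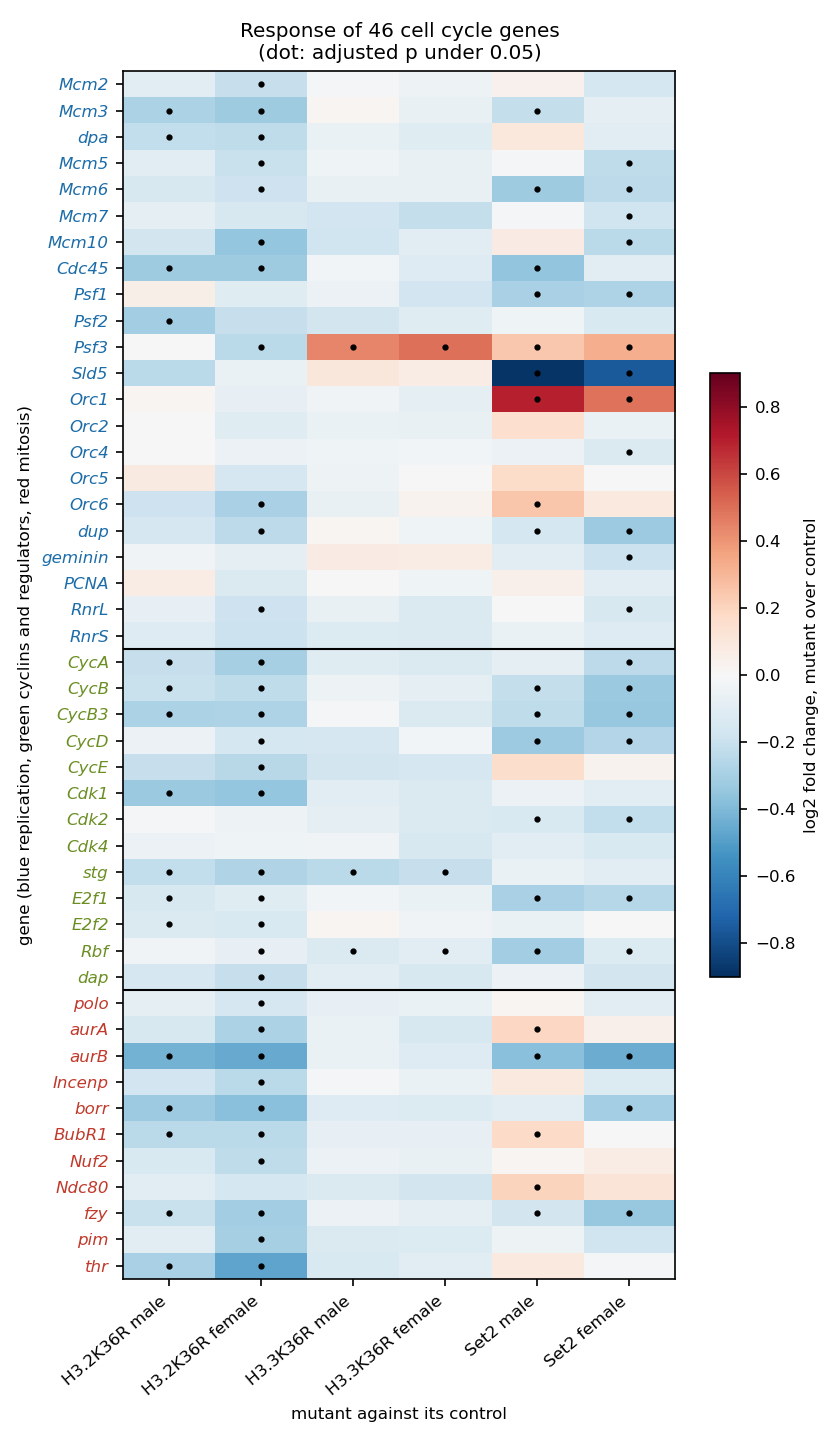
Log2 fold change of each of the 46 members (rows, grouped by class) in the 6 comparisons of a mutant with its control (columns), with calls at an adjusted p below 0.05 marked. All 46 members lay below 0 in H3.2K36R females and 42 in H3.2K36R males, and the lowest value was that of Sld5 (-0.88) and the highest that of Orc1 (0.70), both in Set21 males.

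In H3.2K36R brains 16 of 46 members fell in males and 32 of 46 in females, and none rose. The male count is 34.8% of the members, against 13.1% of all genes tested, with 12.3% of all genes higher. The female count is 69.6%, against 13.7% of all genes, with 11.1% of all genes higher. No member was higher at an unadjusted p of 0.05, or in DESeq2, in either sex. The median log2 fold change of the members was -0.14 in males and -0.21 in females, while that of all genes was 0.00 in both sexes. A set of 15 members, with 3 replication, 7 cyclin or regulator and 5 mitosis genes, fell in both sexes, and in each of them the mutant and control libraries did not overlap in either sex. Separate libraries are likely for genes already called, so this is no further support. The share of all genes lower in both sexes was not counted. Leaving out H3.3WTH3.2HWT female library 2 or H3.3WTH3.2K36R female library 3 reduced the female count to 17 and 20. Leaving out the female library with most roX2 from each genotype, a check added after the data were seen, reduced it to 10. That check left fewer female libraries in each group, and H3.3WTH3.2HWT females with 7.52 and 9.94 CPM of roX2. Whether calls were lost to the smaller number of libraries or to the roX2 level cannot be told from it. Each call was refitted under 11 alternatives in males and 12 in females (another scaling, no filter, DESeq2, a replicate block, only the compared libraries, each library left out and, in females, the libraries with most roX2 omitted). Cdc45, Cdk1, CycB3, stg, aurB, borr and thr kept their calls under all of them in both sexes. In females 22 of the 32 calls were lost under at least 1 alternative, and in males 4 of 16 (CycA, E2f2, fzy and Psf2).

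In the replication class the genes that fell in both sexes were Cdc45, Mcm3 and dpa. Cdc45, which couples the MCM ring to GINS, had 24.1, 25.1 and 25.5 CPM in H3.3WTH3.2K36R males, against 30.3, 32.9 and 29.9 CPM in H3.3WTH3.2HWT males. In females the levels of Cdc45 were 28.6, 28.7 and 27.3 CPM in H3.3WTH3.2K36R brains, against 33.4, 36.1 and 35.9 CPM in H3.3WTH3.2HWT brains. All 3 mutant libraries lay below all 3 control libraries in each sex, a log2 fold change of -0.32 (SE 0.0531, adjusted p = 4.1e-05) in males and -0.32 (SE 0.0528, adjusted p = 4.8e-05) in females. Mcm3, a subunit of the ring, had 76.9, 86.1 and 90.1 CPM in H3.3WTH3.2K36R males, against 99.5, 107 and 102 CPM in H3.3WTH3.2HWT males. Its female levels were 82.2, 86.6 and 80.2 CPM in H3.3WTH3.2K36R brains, against 98.6, 110 and 102 CPM in H3.3WTH3.2HWT brains. Again no library of one group reached the other, and the change was -0.28 (SE 0.0717, adjusted p = 0.0038) in males and -0.32 (SE 0.0717, adjusted p = 0.0015) in females. Without the female library with most roX2 of each genotype the female value of Mcm3 was -0.26 and did not pass (adjusted p = 0.06). The MCM subunit dpa had 100, 105 and 108 CPM in H3.3WTH3.2K36R males, against 117, 127 and 123 CPM in H3.3WTH3.2HWT males. For females the levels of dpa were 105, 108 and 99.9 CPM in H3.3WTH3.2K36R brains, against 119, 129 and 120 CPM in H3.3WTH3.2HWT brains. The groups did not overlap, with -0.22 (SE 0.0584, adjusted p = 0.0051) in males and -0.23 (SE 0.0584, adjusted p = 0.004) in females, where dpa had -0.20 without those roX2 libraries (adjusted p = 0.065).

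Counted over the MCM ring, 2 of 6 genes fell in males and 5 of 6 in females. Mcm2, Mcm5 and Mcm6 passed only the female test, calls lost in 4, 5 and 3 of 12 alternatives, and Mcm7 passed in neither sex, with -0.09 in males and -0.14 in females. Of the 6 genes of helicase activation, Psf2 fell in males (-0.32) and Psf3 and Mcm10 in females (-0.24 and -0.35), beside Cdc45 in both. The calls of Psf2 and Mcm10 were lost in 1 alternative each. Sld5 and Psf1 passed in neither sex. None of the 7 genes of origin recognition and licensing passed in males, and 2 did in females, Orc6 (-0.29) and dup (-0.23), whose calls were lost in 4 and 2 of 12 alternatives. The licensing inhibitor geminin had -0.03 in males and -0.08 in females, neither of which passed. The clamp gene PCNA had 101, 111 and 120 CPM in H3.3WTH3.2K36R males, against 103, 109 and 105 CPM in H3.3WTH3.2HWT males. In females PCNA had 98.3, 105 and 94.6 CPM in H3.3WTH3.2K36R brains, against 104, 118 and 103 CPM in H3.3WTH3.2HWT brains. The PCNA groups overlapped in both sexes, and the log2 fold change was 0.07 (SE 0.0728, adjusted p = 0.54) in males and -0.13 (SE 0.0728, adjusted p = 0.22) in females. RnrL, the large subunit of ribonucleotide reductase, fell in females (-0.18), a call lost in 3 of 12 alternatives.

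In the cyclin and regulator class 7 of 13 genes fell in males and 11 of 13 in females. Cdk1, the kinase that drives entry into mitosis, had 44.4, 48.3 and 47.8 CPM in H3.3WTH3.2K36R males, against 59.6, 59.1 and 58 CPM in H3.3WTH3.2HWT males. In female brains Cdk1 had 47.6, 49.2 and 43.5 CPM in H3.3WTH3.2K36R brains, against 57.8, 61.4 and 59.01 CPM in H3.3WTH3.2HWT brains. No control library was as low as any mutant library, and the change was -0.33 (SE 0.0623, adjusted p = 0.00019) in males and -0.34 (SE 0.0623, adjusted p = 0.00014) in females. CycB3, a mitotic cyclin partner of Cdk1, had 115, 114 and 119 CPM in H3.3WTH3.2K36R males, against 133, 147 and 143 CPM in H3.3WTH3.2HWT males. Female CycB3 levels were 122, 116 and 115 CPM in H3.3WTH3.2K36R brains, against 141, 146 and 140 CPM in H3.3WTH3.2HWT brains. These groups were separate too, with -0.29 (SE 0.06, adjusted p = 0.00062) in males and -0.27 (SE 0.06, adjusted p = 0.0011) in females. CycB, another mitotic cyclin, had 134, 145 and 151 CPM in H3.3WTH3.2K36R males, against 157, 171 and 166 CPM in H3.3WTH3.2HWT males. Its levels in females were 142, 145 and 141 CPM in H3.3WTH3.2K36R brains, against 159, 173 and 168 CPM in H3.3WTH3.2HWT brains. The separation was smaller but complete, at -0.20 (SE 0.0534, adjusted p = 0.0054) in males and -0.23 (SE 0.0534, adjusted p = 0.002) in females. Without the roX2 libraries the female value of CycB was -0.20 (adjusted p = 0.055). The phosphatase stg, the activator of Cdk1, had 156, 175 and 182 CPM in H3.3WTH3.2K36R males, against 196, 200 and 202 CPM in H3.3WTH3.2HWT males. In females stg had 160, 167 and 165 CPM in H3.3WTH3.2K36R brains, against 184, 206 and 204 CPM in H3.3WTH3.2HWT brains. Both sexes showed separate groups, with -0.22 (SE 0.0562, adjusted p = 0.0041) in males and -0.27 (SE 0.0562, adjusted p = 0.00071) in females.

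CycA (-0.21 in males and -0.30 in females), E2f1 (-0.15 in males and -0.11 in females) and E2f2 (-0.13 in males and -0.14 in females) also fell in both sexes. The female calls of E2f1 and E2f2 were lost in 6 and 2 of 12 alternatives, and the male calls of CycA and E2f2 in 2 of 11 each. E2f1 is the activating and E2f2 the repressing E2F factor of the fly. CycD, CycE, Rbf (the fly retinoblastoma protein, which holds E2F in check) and dap (an inhibitor of CycE and Cdk2) passed in females only, between -0.25 for CycE and -0.07 for Rbf, and these calls were lost in 6 (CycD), 6 (CycE), 7 (Rbf) and 8 (dap) of 12 alternatives. The interphase kinases did not pass: Cdk2 had -0.01 in males and -0.05 in females, and Cdk4 -0.05 in males and -0.04 in females. All 5 cyclins fell in females and 3 of 5 in males.

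Among the mitosis genes, aurB had the lowest adjusted p of any member in both sexes. This kinase corrects attachments of chromosomes to the spindle as part of the chromosomal passenger complex, with Incenp and borr. It had 33.5, 36.99 and 37.1 CPM in H3.3WTH3.2K36R males, against 47.04, 49.3 and 48.2 CPM in H3.3WTH3.2HWT males. In females aurB had 34.4, 35.3 and 35.4 CPM in H3.3WTH3.2K36R brains, against 46.2, 49.2 and 48.8 CPM in H3.3WTH3.2HWT brains. The highest mutant library was well below the lowest control library in each sex, and the change was -0.43 (SE 0.0571, adjusted p = 1.5e-06) in males and -0.46 (SE 0.057, adjusted p = 6.1e-07) in females. The borealin gene borr had 42.2, 42.3 and 44.1 CPM in H3.3WTH3.2K36R males, against 52.02, 55.5 and 53.4 CPM in H3.3WTH3.2HWT males. Its female levels were 41.6, 41.5 and 39.9 CPM in H3.3WTH3.2K36R brains, against 50.5, 55.6 and 53.6 CPM in H3.3WTH3.2HWT brains. The groups were separate, with -0.32 (SE 0.0647, adjusted p = 0.00036) in males and -0.38 (SE 0.0647, adjusted p = 7.1e-05) in females. The spindle checkpoint gene BubR1 had 59.9, 66.1 and 64.2 CPM in H3.3WTH3.2K36R males, against 74.5, 75.7 and 75.3 CPM in H3.3WTH3.2HWT males. Levels of BubR1 in females were 61.8, 65.3 and 61.01 CPM in H3.3WTH3.2K36R brains, against 74.9, 76.2 and 71.4 CPM in H3.3WTH3.2HWT brains. They did not overlap, with -0.25 (SE 0.0591, adjusted p = 0.0025) in males and -0.24 (SE 0.0591, adjusted p = 0.003) in females. The female call of BubR1 did not hold without the roX2 libraries, at -0.21 (adjusted p = 0.059). The anaphase gene thr had 29.9, 33.8 and 35.2 CPM in H3.3WTH3.2K36R males, against 37.9, 43.7 and 39.4 CPM in H3.3WTH3.2HWT males. Female thr levels were 29.8, 30.1 and 29.7 CPM in H3.3WTH3.2K36R brains, against 38.1, 44.95 and 41.4 CPM in H3.3WTH3.2HWT brains. The difference was -0.29 (SE 0.0753, adjusted p = 0.0044) in males and -0.47 (SE 0.0754, adjusted p = 2.6e-05) in females, with separate groups in both sexes.

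The APC activator fzy also fell in both sexes (-0.20 in males and -0.31 in females), its male call being lost in 3 of 11 alternatives. The kinases polo and aurA, Incenp, the kinetochore gene Nuf2 and the securin gene pim passed in females only, between -0.30 for pim and -0.15 for polo. These calls were lost in 10 (polo), 5 (Nuf2), 4 (pim), 3 (Incenp) and 1 (aurA) of 12 alternatives. Ndc80, the partner of Nuf2 at the microtubule attachment site, passed in neither sex (-0.10 in males and -0.16 in females). By class, 5 of 11 mitosis genes fell in males and 10 of 11 in females. Of the 10 only aurB, borr, fzy and thr passed without the roX2 libraries, a check with fewer libraries per group. The rest of the 10 ran from -0.307 (pim) to -0.141 (polo) there. The plot of aurB, Cdk1, Cdc45 and PCNA by library shows 3 members with separated groups and 1 without.

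**Figure D2:**
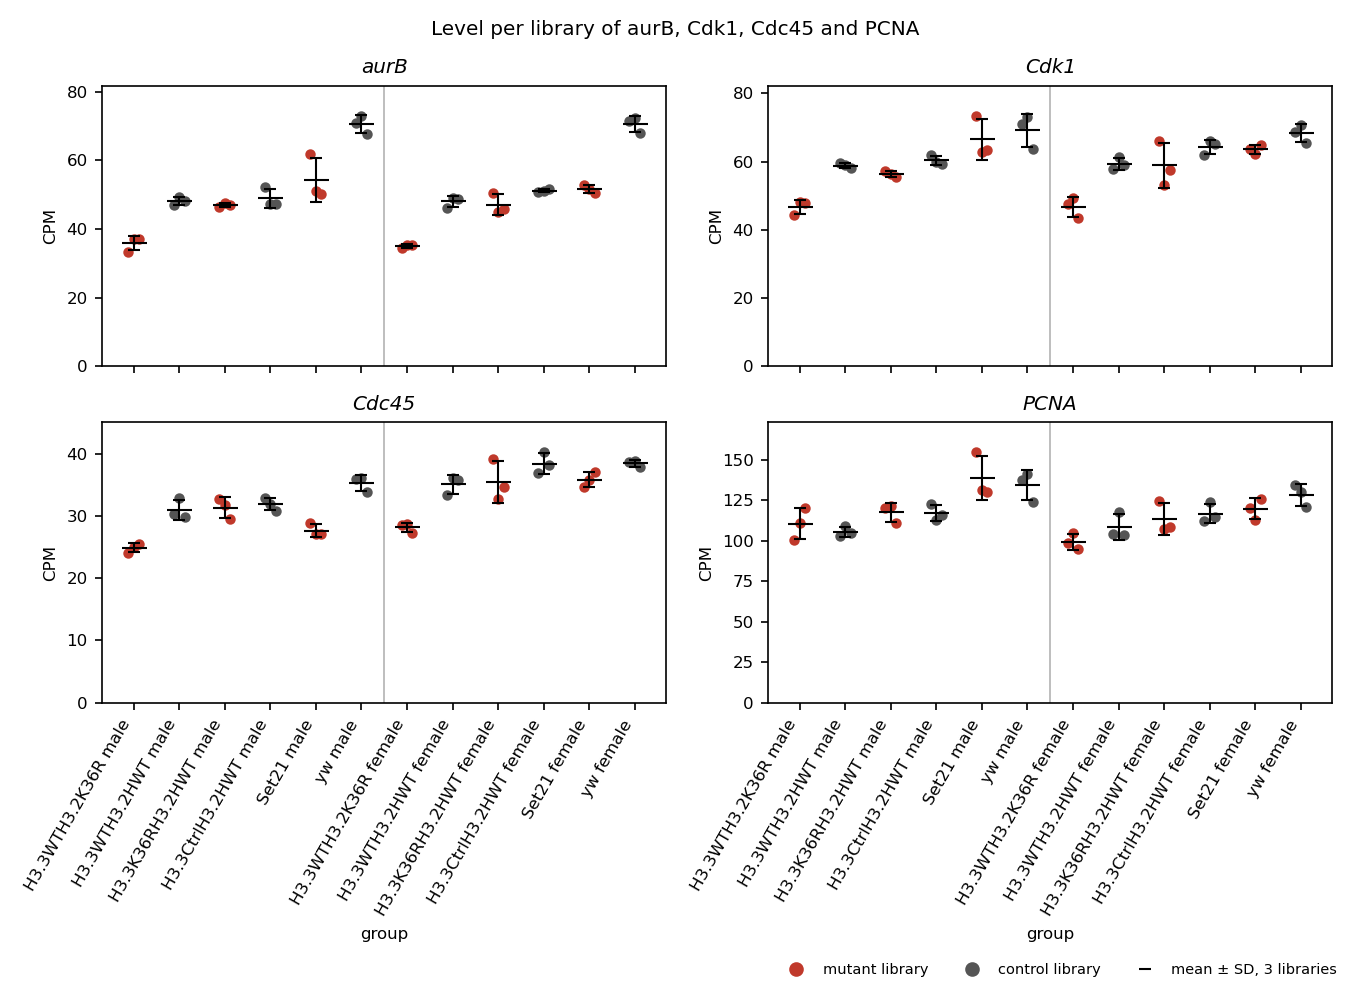
CPM of aurB, Cdk1, Cdc45 and PCNA in each library (points) with the group mean and SD (bars), by sex, for H3.3WTH3.2K36R beside H3.3WTH3.2HWT. The 3 mutant libraries lie below the 3 control libraries for aurB, Cdk1 and Cdc45 in both sexes, whereas the PCNA points overlap.

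Markers of other cells moved in the same comparison, in which 13.1% of all genes were lower and 12.3% higher in males. In females 13.7% of all genes were lower and 11.1% higher. Of 23 genes chosen as markers of neural stem cells and their early daughters, 16 were lower and 1 higher in males, and 18 were lower in females, with medians of -0.35 and -0.34. The long noncoding RNA cherub fell most, with -2.28 in males and -2.55 in females, followed by cas (-1.89 and -1.87) and pros (-0.90 and -0.50). The summed level of the markers other than cherub was 16620 to 17280 CPM in H3.3WTH3.2K36R males, against 21320 to 24800 CPM in H3.3WTH3.2HWT males, and 19000 to 20720 CPM in H3.3WTH3.2K36R females, against 21530 to 25610 CPM in H3.3WTH3.2HWT females. Among 17 markers of differentiated neurons, 3 were lower and 1 higher in males, and 2 were lower and 2 higher in females. Their summed level overlapped in males, at 9157 to 9256 CPM in H3.3WTH3.2K36R and 8491 to 9584 CPM in H3.3WTH3.2HWT brains. Among 11 eye disc markers 7 were lower in males and 9 in females, with summed levels of 555.5 to 567.2 CPM in H3.3WTH3.2K36R males, against 654.5 to 691.4 CPM in H3.3WTH3.2HWT males. None of these markers was at 0 in every library of any group, and their part in the lower cell cycle levels was not tested.

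Other genes of the same processes were taken from 7 lists outside the 46 members, and their counts stand beside the 13.1% (males) and 13.7% (females) of all genes that were lower in H3.2K36R brains. Of 28 genes of DNA polymerases, clamp loader and fork factors, 9 fell in males and 15 in females, with none higher; timeout had -0.50 in males and -0.46 in females, mus101 -0.25 and -0.23, and the flap nuclease gene Fen1 -0.27 and -0.25. Of 20 kinetochore and spindle checkpoint genes, 8 fell and 1 rose in males and 9 fell in females, with Kmn1 at -0.37 and -0.31 and the centromere motor gene Cenp-meta at -0.20 and -0.28. Of 16 cohesin and condensin genes, 7 fell in males and 8 in females, among them the cohesin subunit gene vtd (-0.15 and -0.19). Of 28 spindle and cytokinesis genes, 13 fell and 2 rose in males, and 16 fell and 1 rose in females, with asp, needed at spindle poles, at -0.29 and -0.42. Of 16 genes of the anaphase promoting complex and mitotic exit, 3 fell in males, and 4 fell and 1 rose in females, with the kinase gene gwl at -0.37 and -0.43. Of 16 genes of G1-S control and the dREAM repressor, 4 fell in males and 5 in females, with mip130 at -0.17 and -0.24. Of 10 checkpoint kinase genes, 1 fell in males and 3 in females, with lok at -0.23 and -0.25. In males the last count and that of the anaphase promoting complex were near the share of all genes.

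Replication and mitosis members were then compared. In H3.2K36R brains the replication members were less reduced than the mitosis members. The median log2 fold change of the replication class was -0.10 in males and -0.19 in females, and that of the mitosis class -0.17 in males and -0.28 in females. The difference between the medians was 0.07 in males, or 0.04 without H3.3WTH3.2HWT male library 1, and 0.09 in females. In each library the mean log2 CPM of the replication members was then set against that of the mitosis members. This difference was -0.147, -0.160 and -0.121 in H3.3WTH3.2K36R males, against -0.243, -0.240 and -0.228 in H3.3WTH3.2HWT males. In females it was -0.105, -0.097 and -0.141 in H3.3WTH3.2K36R brains, against -0.203, -0.205 and -0.258 in H3.3WTH3.2HWT brains. The mutant libraries were all higher than the control libraries in both sexes. With 3 libraries against 3 an exact permutation test cannot give a two-sided p below 0.10, and since the members were chosen with results known, no p is given. Without Psf3, the libraries remained separate, at -0.071, -0.076 and -0.040 in H3.3WTH3.2K36R males, against -0.159, -0.155 and -0.141 in H3.3WTH3.2HWT males.

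In summed level, the replication members held 1181 ± 68.4 CPM in H3.3WTH3.2K36R males and 1274 ± 51.4 CPM in H3.3WTH3.2HWT males (SD, n = 3 each). The mitosis members held 565 ± 24.4 CPM in H3.3WTH3.2K36R males and 644 ± 17.8 CPM in H3.3WTH3.2HWT males. The replication sums overlapped between the male groups and the mitosis sums did not. In females the replication sum was 1142 ± 42.8 CPM in H3.3WTH3.2K36R and 1303 ± 66.8 CPM in H3.3WTH3.2HWT brains, and the mitosis sum 541 ± 10.2 CPM in H3.3WTH3.2K36R and 649 ± 25.1 CPM in H3.3WTH3.2HWT brains. Neither sum overlapped between the female groups. The replication sums there were 1095 to 1179 CPM in H3.3WTH3.2K36R and 1255 to 1379 CPM in H3.3WTH3.2HWT brains.

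The other mutants gave smaller differences between the classes. In H3.3K36R brains the difference between the medians was 0.03 in both sexes. By library it was -0.174, -0.172 and -0.175 in H3.3K36RH3.2HWT males, against -0.185, -0.261 and -0.243 in H3.3CtrlH3.2HWT males, without overlap. In females it was -0.160, -0.170 and -0.087 in H3.3K36RH3.2HWT brains, against -0.189, -0.212 and -0.194 in H3.3CtrlH3.2HWT brains, again separate. When Psf3 was left out the groups overlapped in both sexes. In Set2 mutants the difference between the medians was -0.03 in both sexes, and in males it was -0.05 without yw male library 1 or 2 and -0.02 without yw male library 3. The Set21 males, at -0.276, -0.240 and -0.249, lay below the yw males, at -0.223, -0.214 and -0.206, whereas the female groups overlapped. When the 5 genes CycA, CycB, CycB3, Cdk1 and stg were counted as mitosis genes, the difference between the medians in Set2 males was 0.04 in place of -0.03, so its sign depends on how mitosis is defined. The plot of this difference by library shows the separation in both sexes of the H3.2K36R comparison.

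**Figure D3:**
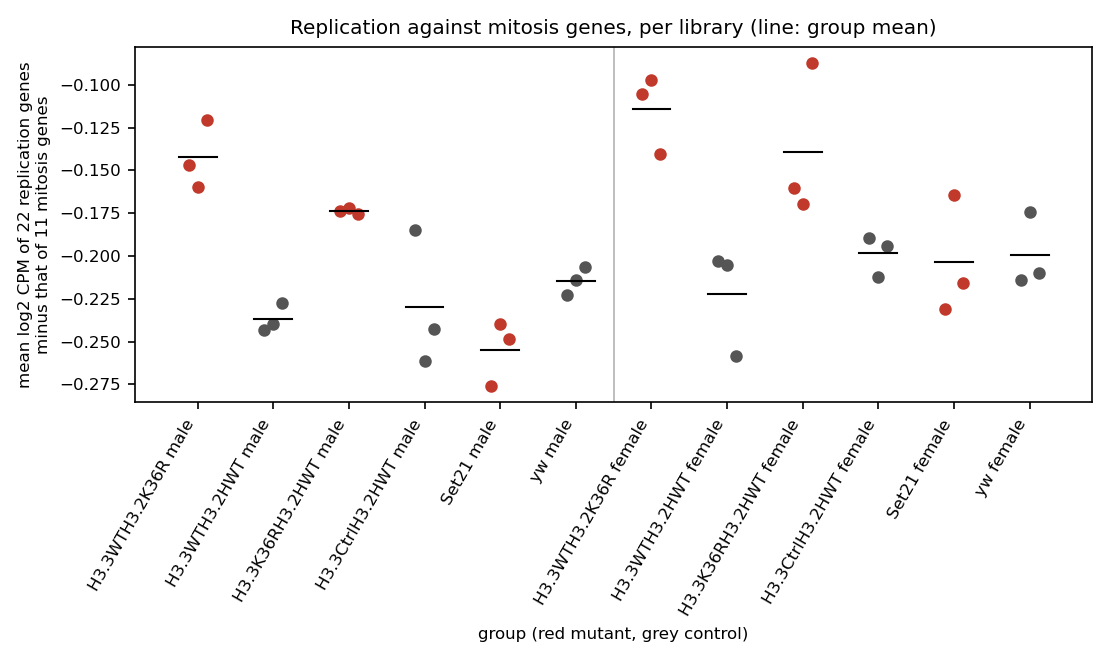
Mean log2 CPM of the 22 replication members minus that of the 11 mitosis members in each of the 36 libraries (points), by genotype and sex, with group means. H3.3WTH3.2K36R libraries lie between -0.160 and -0.097, above all H3.3WTH3.2HWT libraries, which lie between -0.258 and -0.203.

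In H3.3K36R brains few members changed, and 1 of the 3 that did rose. Males had 2 members lower and 1 higher of 46, against 4.08% of all genes lower and 5.88% higher. Females likewise had 2 lower and 1 higher, against 2.9% of all genes lower and 3.44% higher, and these were the same 3 genes. The GINS gene Psf3 rose. It had 14.3, 14.7 and 15.5 CPM in H3.3K36RH3.2HWT males, against 11.8, 10.8 and 10.2 CPM in H3.3CtrlH3.2HWT males. In females Psf3 had 14.4, 14.6 and 14.6 CPM in H3.3K36RH3.2HWT brains, against 10, 10.2 and 10.7 CPM in H3.3CtrlH3.2HWT brains. Every mutant library was above every control library, and the change was 0.44 (SE 0.0593, adjusted p = 5e-06) in males and 0.50 (SE 0.0592, adjusted p = 8e-07) in females. The exons of Psf3 overlap those of CG17841 on the other strand over 34.9% of their bases, and CG17841 is more abundant, at a mean of 57.5 CPM. In this comparison CG17841 did not pass, with 0.06 in males and -0.03 in females.

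The Cdk1 activator stg fell. It had 190, 176 and 180 CPM in H3.3K36RH3.2HWT males, against 217, 220 and 208 CPM in H3.3CtrlH3.2HWT males. In females stg had 182, 163 and 191 CPM in H3.3K36RH3.2HWT brains, against 207, 197 and 216 CPM in H3.3CtrlH3.2HWT brains. The groups were separate in each sex, with -0.24 (SE 0.0562, adjusted p = 0.0046) in males and -0.21 (SE 0.0562, adjusted p = 0.019) in females. The retinoblastoma gene Rbf had 137, 135 and 134 CPM in H3.3K36RH3.2HWT males, against 150, 145 and 148 CPM in H3.3CtrlH3.2HWT males. Female Rbf levels were 141, 144 and 137 CPM in H3.3K36RH3.2HWT brains, against 153, 148 and 150 CPM in H3.3CtrlH3.2HWT brains. The shift was small beside that of Psf3 but the libraries were separate, at -0.13 (SE 0.0235, adjusted p = 0.00042) in males and -0.10 (SE 0.0235, adjusted p = 0.0089) in females. The female count of lower members rested on single libraries. It was 0 without H3.3CtrlH3.2HWT female library 1, 1 without H3.3CtrlH3.2HWT female library 3 or H3.3K36RH3.2HWT female library 2 or 3, and 8 without H3.3K36RH3.2HWT female library 1. Without the roX2 libraries stg had -0.18 in females and did not pass (adjusted p = 0.12), and Rbf passed. In males the count was 2 whichever library was left out.

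The other 43 members did not pass in either sex. aurB had -0.06 in males and -0.12 in females, Cdk1 -0.10 in males and -0.13 in females, and Cdc45 -0.03 in males and -0.12 in females. The median of all 46 members was -0.06 in males and -0.09 in females, while that of all genes tested was 0.00. Of the 28 polymerase and fork genes, 1 was lower in males and 0 in females, and 4 of 28 spindle genes were lower in males and 2 in females. Of the 23 neural stem cell markers 1 was higher in males and 1 lower in females. The shares of all genes were 4.08% lower and 5.88% higher in males, and 2.9% lower and 3.44% higher in females.

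In Set2 mutants members changed in both directions, and the share called in either direction, 20 of 46 in males and 22 of 46 in females, was near the 44.9% and 42.4% of all genes. Males had 14 members lower and 6 higher of 46, which is 30.4% and 13%, against 22% and 22.9% of all genes. Females had 20 lower and 2 higher, which is 43.5% and 4.35%, against 21.5% and 20.9% of all genes. In both sexes 12 members fell (Mcm6, Psf1, Sld5, dup, CycB, CycB3, CycD, Cdk2, E2f1, Rbf, aurB and fzy) and 2 rose (Orc1 and Psf3). The share of all genes that fell or rose in both sexes was not counted, so these counts are description only. The median of the members was -0.05 in males and -0.13 in females. Without Set21 male library 1, the library that stood apart, males had 18 members lower and 2 higher. Without Set21 male library 2 or 3 the lower count was 9 and 8, and without library 3 the higher count was 9. Without yw male library 3 the higher count was 2. In females the lower count was 13 without Set21 female library 2.

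The replication class held the largest changes, and they went opposite ways. Orc1, the largest subunit of the origin recognition complex, rose. It had 51.1, 45.1 and 42.99 CPM in Set21 males, against 28.7, 28.4 and 28.8 CPM in yw males. In females Orc1 had 42.6, 39.7 and 43.6 CPM in Set21 brains, against 29.5, 31.6 and 28.7 CPM in yw brains. Every Set21 library was above every yw library, with 0.70 (SE 0.0713, adjusted p = 4.5e-09) in males and 0.49 (SE 0.0712, adjusted p = 2.6e-06) in females. The gene PIG-G overlaps 3.33% of the exon bases of Orc1 on the other strand and had 0.29 in males and 0.22 in females, both called. Sld5, a GINS subunit, fell. It had 4.19, 3.96 and 3.52 CPM in Set21 males, against 7.37, 7.56 and 6.54 CPM in yw males. Its female levels were 3.41, 4.16 and 4.57 CPM in Set21 brains, against 6.81, 7.45 and 6.27 CPM in yw brains. No yw library was as low as a Set21 library, and the change was -0.88 (SE 0.114, adjusted p = 3.1e-07) in males and -0.76 (SE 0.114, adjusted p = 4.1e-06) in females. The GINS partner Psf3 rose. It had 12.1, 11.1 and 11.2 CPM in Set21 males, against 8.85, 10.4 and 9.78 CPM in yw males. In females it had 12.2, 11.1 and 11.6 CPM in Set21 brains, against 9.11, 9.91 and 8.87 CPM in yw brains. The groups were separate, with 0.25 (SE 0.0594, adjusted p = 0.0012) in males and 0.33 (SE 0.0595, adjusted p = 5.8e-05) in females, and its overlapping neighbour CG17841 rose as well (0.32 in males and 0.21 in females). How much of the Psf3 value comes from reads of CG17841 was not tested.

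Mcm6, a ring subunit, had 99.9, 88.3 and 82.1 CPM in Set21 males, against 118, 114 and 107 CPM in yw males. Female Mcm6 levels were 91.8, 87.4 and 93.95 CPM in Set21 brains, against 108, 108 and 106 CPM in yw brains. The groups were separate, with -0.32 (SE 0.0604, adjusted p = 7.3e-05) in males and -0.23 (SE 0.0604, adjusted p = 0.0025) in females. Psf1 fell with -0.29 in males and -0.28 in females and dup with -0.16 in males and -0.33 in females. The male call of dup was lost in 7 of 11 alternatives, and those of Psf1 in 3 of 11 in males and 3 of 12 in females. Cdc45 and Mcm3 were lower in males only (-0.35 and -0.21), and Orc6 was higher in males only (0.25). The calls of Mcm3 and Orc6 were lost in 5 and 2 of 11 alternatives. Mcm5, Mcm7, Mcm10, Orc4, geminin and RnrL were lower in females only, between -0.24 for Mcm10 and -0.13 for Orc4. These calls were lost in 10 (Orc4), 8 (RnrL), 6 (Mcm7), 4 (Mcm10), 3 (geminin) and 2 (Mcm5) of 12 alternatives, and none of the 6 passed without the roX2 libraries. A call in 1 sex does not show a difference between the sexes, and for Cdc45 the male minus female response was -0.25 with an adjusted p of 0.061. By class, 6 of 22 replication members fell and 3 rose in males, and 10 fell and 2 rose in females.

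In the cyclin and regulator class the members called were all lower, 6 of 13 in males and 7 in females. Rbf had 119, 120 and 119 CPM in Set21 males, against 148, 151 and 144 CPM in yw males. In females Rbf had 132, 135 and 134 CPM in Set21 brains, against 144, 148 and 144 CPM in yw brains. The libraries of each group were tightly spaced and separate, with -0.31 (SE 0.0235, adjusted p = 1.4e-11) in males and -0.12 (SE 0.0235, adjusted p = 0.00011) in females. E2f1, the factor that Rbf restrains, had 561, 550 and 560 CPM in Set21 males, against 677, 701 and 665 CPM in yw males. Its female levels were 576, 595 and 593 CPM in Set21 brains, against 690, 725 and 690 CPM in yw brains. The groups were separate, at -0.29 (SE 0.0371, adjusted p = 2.4e-07) in males and -0.26 (SE 0.0371, adjusted p = 2.3e-06) in females. CycD, the cyclin partner of Cdk4, had 22.2, 20.5 and 20.3 CPM in Set21 males, against 26.6, 27.1 and 25.3 CPM in yw males. Female CycD levels were 21.4, 20.7 and 22.9 CPM in Set21 brains, against 25.9, 26.4 and 25.8 CPM in yw brains. They did not overlap, with -0.33 (SE 0.054, adjusted p = 1.3e-05) in males and -0.26 (SE 0.0539, adjusted p = 0.00023) in females. CycB had 173, 153 and 146 CPM in Set21 males, against 185, 188 and 175 CPM in yw males. In females it had 145, 136 and 149 CPM in Set21 brains, against 183, 180 and 178 CPM in yw brains. The groups were separate and the change was -0.21 (SE 0.0533, adjusted p = 0.0016) in males and -0.33 (SE 0.0534, adjusted p = 1.1e-05) in females. CycB3 fell with -0.23 in males and -0.34 in females, CycA in females only (-0.24), and Cdk2 with -0.13 in males and -0.22 in females. The male calls of CycB3 and Cdk2 were lost in 2 and 5 of 11 alternatives, and the female call of CycA in 1 of 12. CG17267, which overlaps 43.9% of the exon bases of Cdk2 on the other strand, rose by 3.04 in males and 3.81 in females on the log2 scale, at a mean of only 0.119 CPM. Cdk1 (-0.06 in males and -0.10 in females) and stg (-0.06 in males and -0.10 in females), which fell in H3.2K36R brains, did not pass in Set2 mutants.

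Among the mitosis genes aurB fell in both sexes. It had 61.8, 51 and 50.3 CPM in Set21 males, against 71.01, 72.96 and 67.8 CPM in yw males. In females aurB had 52.95, 51.8 and 50.6 CPM in Set21 brains, against 71.5, 72.4 and 68.03 CPM in yw brains. No Set21 library reached the lowest yw library, and the change was -0.38 (SE 0.0564, adjusted p = 3.1e-06) in males and -0.45 (SE 0.0565, adjusted p = 2.4e-07) in females. This fall is one against yw only. The Set21 means were 54.4 CPM in males and 51.8 CPM in females. Means of aurB were 48.2 and 48.1 CPM in H3.3WTH3.2HWT males and females, and 48.9 and 51.2 CPM in H3.3CtrlH3.2HWT males and females. Set21 was not tested against those 2 genotypes. The APC activator fzy had 71.1, 57.2 and 55.8 CPM in Set21 males, against 70.97, 67.6 and 68.4 CPM in yw males. Female fzy levels were 53.8, 49.8 and 58.3 CPM in Set21 brains, against 68.7, 68.2 and 68.2 CPM in yw brains. The male groups overlapped and the female groups did not, with -0.17 (SE 0.0677, adjusted p = 0.044) in males and -0.34 (SE 0.0678, adjusted p = 0.00017) in females, and the male call was lost in 7 of 11 alternatives. aurA, BubR1 and Ndc80 rose in males only (0.19, 0.17 and 0.20), and these calls were lost in 6, 3 and 3 of 11 alternatives. borr was lower in females only (-0.31). polo, Incenp, Nuf2, pim and thr passed in neither sex. By class, 2 of 11 mitosis genes fell and 3 rose in males, and 3 fell and 0 rose in females. The plot of Orc1, Sld5, Psf3 and Rbf by library shows both directions.

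**Figure D4:**
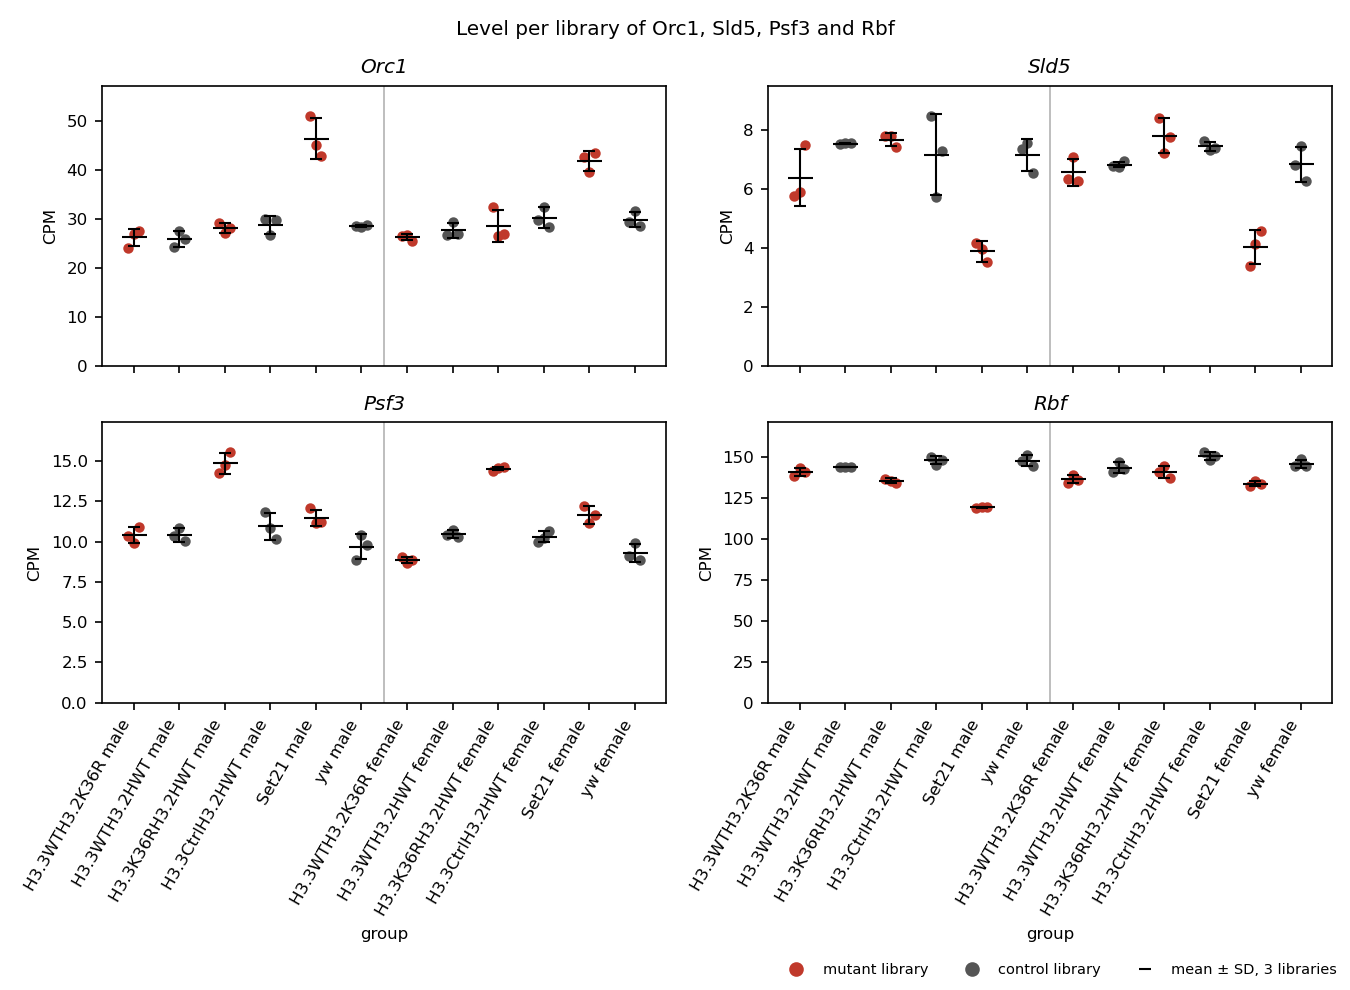
CPM of Orc1, Sld5, Psf3 and Rbf in each library (points) with the group mean and SD (bars), by sex, for Set21 beside yw. Orc1 and Psf3 lie higher and Sld5 and Rbf lower in all Set21 libraries than in any yw library of the same sex.

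Other division genes in Set2 mutants also moved both ways, beside 22% of all genes lower and 22.9% higher in males, and 21.5% lower and 20.9% higher in females. The counts of these lists were not refitted without Set21 male library 1, which stood apart. Of the 28 polymerase and fork genes 5 fell and 10 rose in males, and 7 fell and 2 rose in females. Their summed level overlapped in males, at 1320 to 1453 CPM in Set21 and 1336 to 1379 CPM in yw brains. Of the 20 kinetochore genes 3 fell and 9 rose in males, and 5 fell and 9 rose in females. Their male sums were separate, at 1123 to 1215 CPM in Set21 and 1008 to 1045 CPM in yw brains. Of the 28 spindle genes 8 fell and 8 rose in males, and 9 fell and 2 rose in females. Their male sums overlapped, at 3706 to 4022 CPM in Set21 and 3845 to 3905 CPM in yw brains. Of the 16 cohesin and condensin genes 6 fell and 4 rose in males, and 5 fell and 1 rose in females. Genes of the anaphase promoting complex gave 5 lower and 3 higher of 16 in males, and 5 lower and 2 higher in females, while 5 of 16 G1-S control genes were lower in each sex. Checkpoint kinases gave 3 lower and 3 higher of 10 in each sex. Among neural stem cell markers 13 of 23 were lower in each sex, with medians of -0.19 in males and -0.25 in females, and the sum of the markers other than cherub was 18980 to 22910 CPM in Set21 males, against 23370 to 26240 CPM in yw males. That sum overlapped in females, at 22960 to 24100 CPM in Set21 and 23220 to 25610 CPM in yw brains. Of the 17 neuronal markers 12 were lower in males and 10 in females, with summed levels of 7551 to 8714 CPM in Set21 males, against 9266 to 9902 CPM in yw males. The part of these markers in the member values was not tested.

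The study asked how these mutations act on the male X chromosome, so the sexes were compared. The male minus female difference of the response was tested for each member as an interaction. For H3.2K36R 0 of 46 members passed in edgeR, against 0.0658% of all genes, with 2 members below an unadjusted p of 0.05 and 0 called by DESeq2. For H3.3K36R 0 passed in edgeR, against 0.181% of all genes, with 0 below an unadjusted p of 0.05 and 0 called by DESeq2. The larger female count in H3.2K36R brains is therefore not shown to be a difference between the sexes. For Set2 1 member passed, against 3.43% of all genes, with 8 below an unadjusted p of 0.05 and 2 called by DESeq2. That member was the X-linked Rbf, whose fold change differed by -0.19, males minus females (SE 0.0333, adjusted p = 0.00075). The plot of male against female fold changes shows Rbf apart from the diagonal in the Set2 panel.

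**Figure D5:**
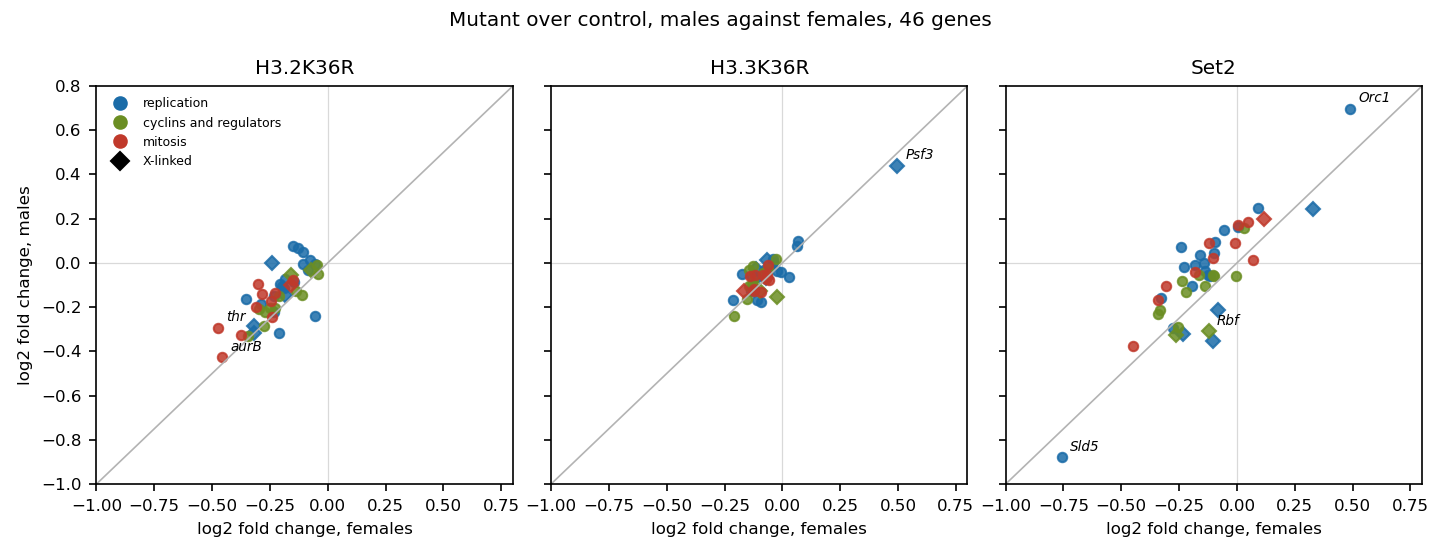
Log2 fold change in males (vertical axis) against that in females (horizontal axis) for the 46 members in each mutant, with the line of equal change. X-linked members are marked. Rbf lies at -0.31 in males and -0.12 in females in the Set2 panel.

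Of the 7 X-linked members (Mcm3, Mcm6, Cdc45, Psf3, CycD, Rbf and Ndc80), 5 fell and 2 rose in Set21 males, and 3 fell and 1 rose in Set21 females. Of the 39 autosomal members 9 fell and 4 rose in males, and 17 fell and 1 rose in females. Over all X-linked genes tested, 40.7% were lower and 13.7% higher in Set21 males, and 22.7% lower and 16.2% higher in Set21 females. On the large autosomal arms 18.3% were lower and 24.5% higher in males, and 20.9% lower and 22% higher in females. The median male minus female response was -0.09 over the 7 X-linked members and 0.13 over the 39 autosomal members. It was -0.11 over all X-linked genes and 0.02 over all genes of those arms. These medians and counts include Set21 male library 1 and were not computed without it. In that library the mitosis members summed to 808 CPM, against 677 and 652 CPM in Set21 male libraries 2 and 3. In H3.2K36R males 2 of 7 X-linked members fell, against 18.4% of all X-linked genes, and 14 of 39 autosomal members, against 11.9% of all genes of the large autosomal arms.

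Among controls alone, males and females differed in 1 member. Cdc45 had 35.4 ± 1.27 CPM in yw males and 38.5 ± 0.534 CPM in yw females, 31.01 ± 1.62 CPM in H3.3WTH3.2HWT males and 35.1 ± 1.48 CPM in H3.3WTH3.2HWT females, and 31.95 ± 1.03 CPM in H3.3CtrlH3.2HWT males and 38.5 ± 1.68 CPM in H3.3CtrlH3.2HWT females (SD, n = 3 each). The mean difference over the 3 control genotypes, males minus females, was -0.19 (SE 0.0304, adjusted p = 5.4e-05), while 4.99% of all genes were lower in males and 3.15% higher.

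Responses of the 3 mutants were tested against each other, averaged over the sexes. The H3.2K36R response was lower than the H3.3K36R response in 14 members and higher in 0 in edgeR, against 15.8% and 12.9% of all genes, with 1 higher at an unadjusted p of 0.05 and 1 higher in DESeq2. The differences were -0.59 (SE 0.0594, adjusted p = 1e-08) for Psf3, -0.35 (SE 0.0568, adjusted p = 2.2e-05) for aurB and -0.25 (SE 0.0528, adjusted p = 0.00073) for Cdc45. Leaving out any of 4 libraries (H3.3WTH3.2K36R female 3, H3.3WTH3.2K36R male 1, H3.3CtrlH3.2HWT female 1 or H3.3K36RH3.2HWT female 1) left 9 members called. The H3.2K36R response was lower than the Set2 response in 14 members and higher in 6, against 21.5% and 19.9% of all genes. Orc1 (-0.62) and BubR1 (-0.33) had the lower response in H3.2K36R, while Sld5 (0.67) and Rbf (0.16) had the higher. By class, 6 of 11 mitosis members were lower in H3.2K36R than in Set2 responses and 0 higher. aurB was not among them, with -0.03 (adjusted p = 0.72). The H3.3K36R response was lower than the Set2 response in 6 members and higher in 13, against 20.6% and 22% of all genes, with Orc1 at -0.65 and Sld5 at 0.90.

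The control genotypes themselves differed. Between H3.3WTH3.2HWT and yw brains, 21 members were lower and 1 higher in H3.3WTH3.2HWT, against 19.1% and 20.1% of all genes. Of the 21, 13 were replication members. The gene aurB stood at 48.2 ± 1.11 CPM in H3.3WTH3.2HWT males and 70.6 ± 2.63 CPM in yw males, a difference over both sexes of -0.55 (SE 0.04, adjusted p = 4.5e-12). The next were geminin (-0.37), PCNA (-0.30), dup (-0.24) and Cdk1 (-0.22). Between H3.3CtrlH3.2HWT and H3.3WTH3.2HWT brains, 4 members were higher in H3.3CtrlH3.2HWT (Mcm5, Mcm7, RnrS and Rbf, from 0.05 to 0.16) and 0 lower, against 5.51% and 6.06% of all genes, and no member was lower at an unadjusted p of 0.05 or in DESeq2. Those 4 calls dropped to 0 without H3.3WTH3.2HWT female library 1 or 3, H3.3WTH3.2HWT male library 1 or H3.3CtrlH3.2HWT male library 1, to 1 without H3.3WTH3.2HWT male library 3, H3.3CtrlH3.2HWT female library 2 or H3.3CtrlH3.2HWT male library 3, and to 2 without H3.3CtrlH3.2HWT female library 1. These comparisons share their libraries with each other and with the mutant comparisons, so their values are given side by side only.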

How the data were processed

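Poly(A) RNA libraries were made with a stranded kit and sequenced as read pairs, per the labels' protocols, and the reads were processed with STAR 2.7.2a and Subread 2.0.3, per the submitters' processing notes. The deposited values are whole-number read counts per gene, with no normalization, for 36 libraries. Build, annotation and strand setting are stated in no source used here. Between 79.2 and 85.1% of a library's values of 1 to 4 were even, as when both reads of a pair are counted, so a count is not an independent molecule.

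Counts were fitted with edgeR 4.0.16 (quasi-likelihood test, TMM scaling with factors of 0.970 to 1.055, filterByExpr with a minimum count of 10, 24 residual degrees of freedom) in R 4.3.3 as 12 group means, and each comparison was a contrast with Benjamini-Hochberg adjustment over 12167 genes. The script was tested on simulated data. Pairs of libraries of a group differed beyond sampling noise (chi-square over degrees of freedom from 7.61 to 86.2), so none was taken for a repeat. Replicate numbers deviated together (r above 0.1 for every pair) only for H3.2K36R females, at 0.34, 0.105 and 0.186.

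The members, the lists and the tests were chosen with earlier results of these data known. Members called in both sexes of a mutant with the same sign are given by library, up to 4 per class by smallest worst adjusted p, and other members by ranges and counts; of each list up to 3 genes are named. Alternatives were DESeq2 1.42.0 (Wald test, or its size factors), no filter, a replicate block, only the compared libraries, another mitosis class, means for medians and leaving out each library.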

Additional observations from a re-analysis of the deposited data

Results flagged for a closer look

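The X-linked gene Rbf was the only member whose Set2 response differed between the sexes in the edgeR test of that difference, which 3.43% of all genes passed. The DESeq2 Wald test called 2 members. As given above, the median Set2 response of all X-linked genes was also lower in males than in females. The levels of Rbf follow. Rbf had 119, 120 and 119 CPM in Set21 males, against 148, 151 and 144 CPM in yw males, and 132, 135 and 134 CPM in Set21 females, against 144, 148 and 144 CPM in yw females. The fold change was lower in males, with a male minus female difference of -0.19 on the log2 scale (SE 0.0333, adjusted p = 0.00075), and in each sex all 3 Set21 libraries lay below all 3 yw libraries.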

How the results depend on the processing

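No member called in a comparison of a mutant with its control changed sign under any alternative that was run. The replication minus mitosis difference of Set2 males, which was not tested, did change sign with the wider mitosis class, to 0.03638. Each called member of the 6 comparisons of a mutant with its control was refitted under every alternative, and 180 of these 1113 calls were lost, with 84 in H3.2K36R females, 8 in H3.2K36R males, 43 in Set2 males, 37 in Set2 females, 8 in H3.3K36R females and 0 in H3.3K36R males. Of the counts and class differences 382 stayed within 1.5 times or 1 SD and 47 moved. With DESeq2 size factors, the DESeq2 Wald test or only the compared libraries, the Set2 male minus female test called 2 members, against 1. With no filter on low counts, 2 members differed between H3.3CtrlH3.2HWT and H3.3WTH3.2HWT, against 4. With only the compared libraries, the lower members were 6 in H3.3K36R males, 0 in H3.3K36R females and 8 in Set2 males, and 3 were higher in Set2 males. The replication minus mitosis difference of H3.2K36R males was 0.1049 with the wider mitosis class and 0.09498 with means, and that of Set2 males was 0.03638 with the wider class. Omitting the female library with most roX2 in each genotype, chosen after seeing the data, gave 10 lower members in H3.2K36R females, a replication minus mitosis difference of 0.1318 there, 1 lower member in H3.3K36R females and 2 between H3.3CtrlH3.2HWT and H3.3WTH3.2HWT. With the replicate block, H3.2K36R had 17 lower members in males and 34 in females, and the block moved no other count by over 1.5 times. When each library was left out in turn, lower members were 13 to 19 in H3.2K36R males, 17 to 31 in H3.2K36R females, 2 in H3.3K36R males, 0 to 8 in H3.3K36R females, 8 to 18 in Set2 males and 13 to 18 in Set2 females. Higher members of Set2 males were 2 to 9. The replication minus mitosis difference was 0.03914 to 0.09595 in H3.2K36R males, 0.06474 to 0.1185 in H3.2K36R females, 0.01628 to 0.03709 in H3.3K36R males, 0.02238 to 0.04261 in H3.3K36R females, -0.05288 to -0.01696 in Set2 males and -0.04988 to -0.02334 in Set2 females. Members whose responses differed were 9 to 16 for H3.2K36R and H3.3K36R, 18 to 23 for H3.2K36R and Set2, 16 to 21 for H3.3K36R and Set2, and 1 to 2 for Set2 males and females. Between controls they were 0 to 6 for H3.3CtrlH3.2HWT and H3.3WTH3.2HWT, and 16 to 25 for H3.3WTH3.2HWT and yw. The causes of these shifts were not tested. In H3.2K36R males the standard error was largest for Sld5 (0.112), and its relation to depth was not tested.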

Other observations

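Markers of tissues that a brain dissection can carry along were also measured. In H3.2K36R brains 13.1% of all genes were lower and 12.3% higher in males, and 13.7% lower and 11.1% higher in females. In H3.2K36R brains 6 of 10 imaginal disc markers were lower in males, and 3 were lower and 1 higher in females, with the wing gene vg at -0.64 and -0.58. Of 10 hemocyte markers 4 were lower in each sex, among them the prophenoloxidase gene PPO1 (-5.67 and -5.73). Of 8 ring gland markers 2 were lower in males and 4 in females, with the ecdysone synthesis gene nvd at -1.06 and -1.60. Of 10 glial markers 1 was lower and 1 higher in males, and 2 were lower in females. Of 7 fat body markers 1 was lower in males and 0 in females, and of 6 muscle markers 0 passed in either sex. Germline genes rose, 7 of 8 in each sex, with nos at 6.14 in males and 5.11 in females, at summed levels of 74.2 to 79.2 CPM in H3.3WTH3.2K36R males, against 27.5 to 41.01 CPM in H3.3WTH3.2HWT males.

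In Set21 brains 4 of 10 imaginal disc markers were lower and 1 higher in each sex, and 6 of 11 eye disc markers were lower and 1 higher in each sex. Over all genes 22% were lower and 22.9% higher in Set21 males, and 21.5% lower and 20.9% higher in Set21 females. The summed level of the hemocyte markers was 251 to 304 CPM in Set21 males, against 168 to 186 CPM in yw males, and 2 of 10 were higher in each sex and 1 lower in males. Ring gland markers were higher for 5 of 8 in males and 0 in females. In H3.3K36R brains 5 of 11 eye disc markers were lower in males and 1 in females, and 3 of 10 glial markers were higher in males and 1 in females. Beside these, 4.08% of all genes were lower and 5.88% higher in males, and 2.9% lower and 3.44% higher in females.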
